A study of Macaca fascicularis with 2 samples.

Results

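The transcripts described are those of the cytokine receptor chains IL7R, IL2RB, IL6R, IL6ST, IL4R, IL10RA, IL18R1 and IL12RB1 in circulating T cells selected for CD4 and CD8. They were chosen by gene symbol from a list of 9 chains, of which 8 were found among the 29324 genes of the count matrix. The remaining one, IL2RG, was not among the symbols and was not analysed here. The cells came from the peripheral blood of 1 untreated cynomolgus monkey (Macaca fascicularis) aged 10 years. Magnetic beads for CD4 and then for CD8 were used to select the cells from unfrozen mononuclear cells, after which antibodies to CD4 and CD8α bearing a sequence tag were bound to them. A 5′ gene expression library and a surface tag library were made from the same cells. With 1 animal and 1 pair of libraries no test across animals was possible, so every interval below covers counting error only.

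Most cytokines act on a T cell through receptor chains that the cell makes itself, although IL-6 can also act through a soluble form of IL6R, and most of these receptors pair a chain that binds 1 cytokine with a chain that several receptors share. IL7R is the α chain of the IL-7 receptor, which keeps resting T cells alive, whereas IL2RB is the signalling β chain for IL-2 and IL-15 and is best known from effector, regulatory and NK cells. IL6R binds IL-6 and IL6ST (gp130) transmits its signal, IL4R serves IL-4 and IL-13, IL10RA binds IL-10, IL12RB1 is shared by the receptors of IL-12 and IL-23, and IL18R1 binds IL-18. All but IL18R1, which signals through MyD88, act through JAK kinases and STAT proteins.

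Cells were placed in exclusive gates by the UMIs (molecules of RNA counted by their unique molecular identifiers) of marker genes, none of which is a receptor chain described here. Cytotoxic cells had a UMI of at least 3 of 10 listed cytotoxic genes such as GZMB, PRF1 and NKG7, of which 8 were found. FOXP3 cells had a UMI of FOXP3, the transcription factor of regulatory T cells, and CCR6 cells a UMI of CCR6, a chemokine receptor of Th17 cells. CXCR5 and CCR4 cells were taken in the same way by the chemokine receptors of follicular helper and Th2 cells. Naive cells had a UMI of at least 3 of 6 listed genes such as TCF7, CCR7 and LEF1 and none of the cytotoxic genes or of a list of other effector genes such as GZMK, EOMES and TBX21. Of 8830 cells kept, 8592 were not taken by the B cell gates described below and are called T cells here. No T cell transcript was required of them. They held 5203 naive, 1587 cytotoxic, 366 FOXP3, 207 CCR6, 152 CXCR5 and 79 CCR4 cells, and 998 cells in no named gate. Tag compartments were set at 144 UMIs of the CD4 tag and 419 UMIs of the CD8 tag, giving 5669 CD4hiCD8lo, 2477 CD4hiCD8hi and 404 CD4loCD8hi cells. The remaining 42 cells, low in both tags, were in no comparison of compartments.

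The marker genes went with the gates. The 4 T cell markers CD3D, CD3E, CD3G and TRAC summed to between 2610 and 3896 CPM (UMIs per 1000000 gene UMIs of a group) in the named T cell gates and to 19.7 CPM in 114 B cells that carried at most 1 UMI of them. In the 998 cells of no named gate they summed to 2916 CPM. Those cells also held 1257 CPM of the red cell genes HBB and ALAS2 and 421 CPM of the monocyte genes. The 42 cells low in both tags held 2198 CPM of the T cell markers and 45560 CPM of HBB and ALAS2. CD4 RNA was at 107 CPM in CD4hiCD8lo, 114 CPM in CD4hiCD8hi and 1.3 CPM in CD4loCD8hi cells, so the last compartment held almost no CD4 RNA, and CD8A was at 46.3, 274 and 848 CPM in the same order. The labels do not settle whether the CD4loCD8hi cells were CD4+CD8+ cells or cells without CD4 carried through the bead selection. Their median CD4 tag was 101 UMIs, below the threshold by construction, beside 136 in the 114 B cells and 416 in CD4hiCD8lo cells. IL2RA and CTLA4, 2 further markers of regulatory cells, were at 92.5 and 107 CPM in FOXP3 cells and at 3.82 and 13.5 CPM in naive cells. Median depth was 2899 UMIs in naive, 3653 in cytotoxic, 3526 in FOXP3 and 4797 in CCR6 cells. Shares of cells with a UMI are therefore given after each cell was thinned to 2200 UMIs, which left out 754 shallower cells.

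All 8 chains were detected in T cells, at depths that differed widely. In the T cells together IL7R had 22025 UMIs, IL10RA 3690, IL4R 2876, IL2RB 1780, IL6ST 1668, IL6R 1176, IL12RB1 371 and IL18R1 174. Counts of 5′ reads were not divided by transcript length, so the chains are not ranked against each other and each is compared only with itself between groups. The precision for IL12RB1 and IL18R1, with the fewest UMIs, was the lowest. The files list the chains under the Ensembl identifiers ENSMFAG00000040996 (IL7R), ENSMFAG00000002576 (IL2RB), ENSMFAG00000038621 (IL6R), ENSMFAG00000035325 (IL6ST), ENSMFAG00000032930 (IL4R), ENSMFAG00000037844 (IL10RA), ENSMFAG00000032671 (IL18R1) and ENSMFAG00000041911 (IL12RB1), with no positions.

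**Figure D1:**
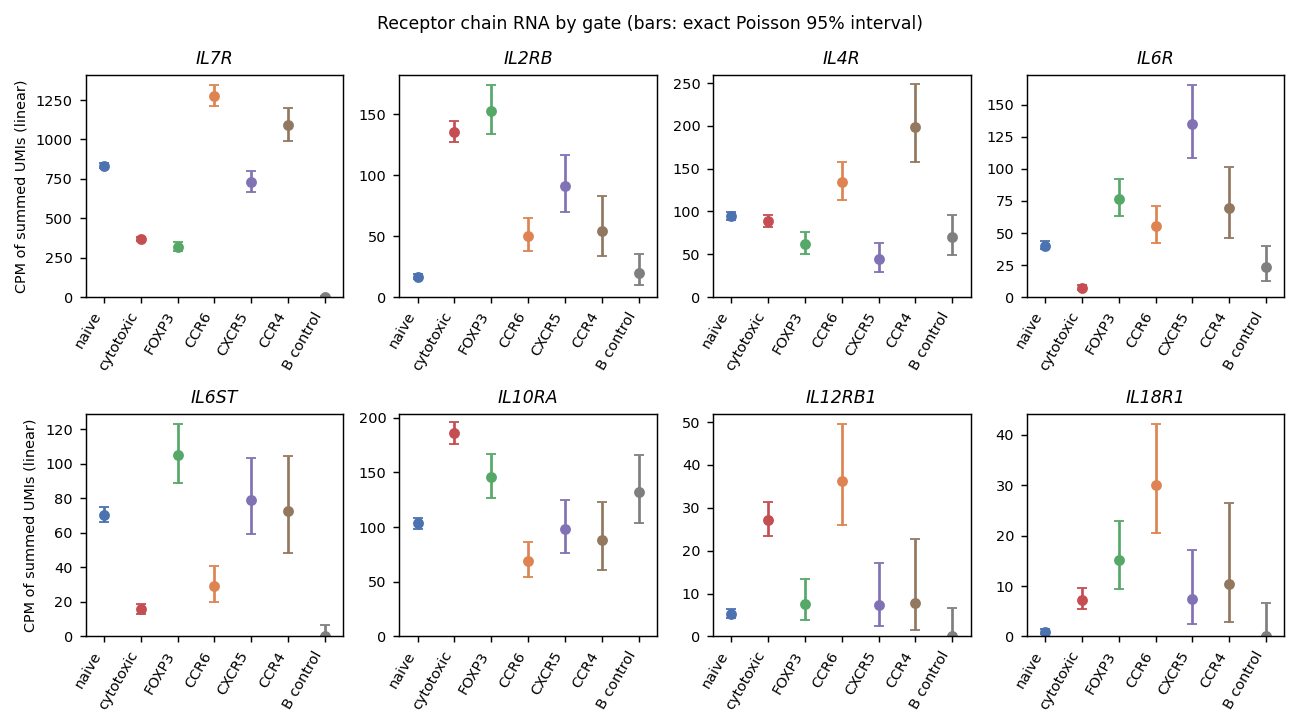
RNA level of each receptor chain (linear axis, CPM of the UMIs summed over the cells of a gate) in 6 T cell gates and in B control cells, with bars for the exact Poisson 95% interval. IL7R lay at 834.5 CPM in naive, 368 CPM in cytotoxic and 320 CPM in FOXP3 cells, and IL2RB ran the other way, with 16.7, 136 and 153 CPM.

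IL7R set the resting and helper cells apart from cytotoxic and FOXP3 cells. Its level was 834.5 CPM in naive cells (95% interval 820.5 to 849) and 1276 CPM in CCR6 cells (1210 to 1345). It was 368 CPM in cytotoxic cells (354 to 383) and 320 CPM in FOXP3 cells (292 to 350.3). The order from high to low was CCR6, CCR4 (1092 CPM, interval 990.0 to 1201), naive, CXCR5 (733 CPM, 669.7 to 800), cytotoxic and FOXP3, and no neighbours in it had overlapping intervals. At equal depth a UMI of IL7R was found in 91.2% of CCR6 cells (86.4 to 94.7%), 76.3% of naive cells (75.02 to 77.5%), 41.5% of FOXP3 cells (36.3 to 46.8%) and 39.0% of cytotoxic cells (36.6 to 41.5%). The B control cells had a median depth of 4542 UMIs before thinning, and after it IL7R was found in 0 of 112, where a floor of 3 counts would be 2.68%. Before thinning, when deeper cells have the advantage, the shares were 97.1, 82.1, 54.9 and 49.4% in the order given and 0.877% in B control cells. IL7R UMIs were thus rare in cells that should lack them.

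IL2RB, the other growth-factor receptor chain, was lowest in naive cells and highest in FOXP3 and cytotoxic cells, where IL7R was lowest. It was at 16.7 CPM in naive cells (14.7 to 18.8), 136 CPM in cytotoxic cells (127 to 145) and 153 CPM in FOXP3 cells (133 to 174). CXCR5 cells held 91.0 CPM (69.8 to 117), CCR4 cells 54.3 CPM (33.6 to 83.0) and CCR6 cells 49.9 CPM (37.6 to 65.0). FOXP3 and cytotoxic cells were not apart beyond counting error (log2 ratio 0.17, interval -0.05 to 0.38), and neither were CCR4 and CCR6 cells (0.12, -0.68 to 0.87). The thinned share was 24.7% of FOXP3 and 24.0% of cytotoxic cells, against 3.07% of naive cells (2.59 to 3.60%). That last share was close to the 2.68% in B control cells (0.56 to 7.63%), where 11 IL2RB UMIs lay in 2.63% of the cells before thinning. Whether those few B cells made the IL2RB RNA themselves was not tested. The shares before thinning were 40.4% of FOXP3, 37.2% of cytotoxic and 4.48% of naive cells.

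IL6R and IL6ST, the binding and the signalling chain for IL-6, were both low in cytotoxic cells. IL6R was at 7.4 CPM there (5.49 to 9.75), against 40.2 CPM in naive (37.2 to 43.4), 55.4 CPM in CCR6 (42.4 to 71.1), 76.7 CPM in FOXP3 (63.2 to 92.3) and 135 CPM in CXCR5 cells (109 to 166). IL6ST was at 15.7 CPM in cytotoxic (12.8 to 19.0) and 29.0 CPM in CCR6 cells (19.9 to 41.0), against 70.6 CPM in naive (66.5 to 74.8) and 105 CPM in FOXP3 cells (88.9 to 123). The pair therefore parted in CCR6 cells, where IL6R was above its naive level and IL6ST below. With the CCR6 gate raised to 2 UMIs, which left 52 cells, the log2 ratio of IL6R to naive cells was -0.02 in place of 0.46, and that of IL6ST -2.93 in place of -1.28. With clusters in place of gates the IL6R ratio was 1.24, so its size depends on how these cells are chosen. The CCR6 cluster held 148 cells, of which 37.8% had a CCR6 UMI. Another cluster of 1006 cells, 16.7% of them with a CCR6 UMI, was not counted as CCR6 cells. Thinned shares of IL6R were 1.31% in cytotoxic, 7.77% in naive, 14.8% in FOXP3 and 25.3% in CXCR5 cells (18.5 to 33.2%). B control cells gave 6.25% (2.55 to 12.4%), so that the naive share is not apart from theirs. Whether the B cells made this IL6R RNA themselves was not tested. Before thinning the shares were 2.71, 11.1, 24.3 and 41.4% in those gates and 11.4% in B control cells. IL6ST was found in 0 of the 112 thinned B control cells.

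The monocyte list, of which 8 of 9 genes were found, moved with the IL6R level in some gates. It summed to 214 CPM in CXCR5 cells, 101 CPM in FOXP3 cells, 110 CPM in cytotoxic cells and 17.5 CPM in naive cells, with none of its genes at 0 in the first 3 of these gates. Without cells that had at least 3 UMIs of the list, which removed 1 CXCR5 and 3 FOXP3 cells, the list fell to 10.3 and 16.0 CPM, and IL6R was at 134 CPM (108 to 165) and 73.8 CPM (60.4 to 89.3). The IL6R levels were therefore almost as high without those cells.

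IL4R, the chain for IL-4 and IL-13, was highest in the 2 helper gates marked by CCR4 and CCR6. It was at 199 CPM in CCR4 cells (157 to 249) and 134 CPM in CCR6 cells (114 to 158), which differed by a log2 ratio of 0.57 (0.15 to 0.98). Naive cells held 94.2 CPM (89.5 to 99.0) and cytotoxic cells 88.5 CPM (81.5 to 95.8), which were not apart beyond counting error. FOXP3 cells held 62.3 CPM (50.2 to 76.5) and CXCR5 cells 44.1 CPM (29.7 to 62.9), also not apart (0.50, -0.11 to 1.15). B cells carry IL4R themselves, and the B control cells held 69.8 CPM, so they are no measure of free RNA for this gene.

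IL10RA, which binds the inhibitory cytokine IL-10, was highest in cytotoxic cells. Its level was 186 CPM there (176 to 196), 146 CPM in FOXP3 cells (127 to 167), 103 CPM in naive cells (98.6 to 109) and 69.0 CPM in CCR6 cells (54.3 to 86.3). CXCR5 cells at 98.4 CPM and CCR4 cells at 88.0 CPM lay between naive and CCR6 cells and were not apart from naive cells. The thinned share was 34.7% of cytotoxic cells (32.3 to 37.2%) and 13.2% of CCR6 cells (8.91 to 18.7%), and before thinning it was 52.5 and 31.4%. B control cells, which can also respond to IL-10, held 132 CPM, with a thinned share of 28.6%.

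IL12RB1 and IL18R1, chains for the cytokines that drive interferon-γ and IL-17 responses, were scarce and, among the named gates, were highest in CCR6 cells. IL12RB1 was at 36.3 CPM in CCR6 cells (25.9 to 49.4) and 27.2 CPM in cytotoxic cells (23.4 to 31.5), which were not apart, and at 5.24 CPM in naive (4.19 to 6.48) and 7.53 CPM in FOXP3 cells (3.76 to 13.5). IL18R1 was at 30.0 CPM in CCR6 (20.6 to 42.1), 15.1 CPM in FOXP3 (9.44 to 22.8), 7.25 CPM in cytotoxic (5.36 to 9.58) and 0.93 CPM in naive cells (0.52 to 1.53). By gates the 2 chains thus separated. FOXP3 cells had the higher IL18R1 level (from 22 UMIs, beside 49 in cytotoxic cells) and cytotoxic cells the higher IL12RB1. With clusters in place of gates the IL18R1 order was not kept, with 4.91 CPM in the FOXP3 cluster and 3.50 to 14.6 CPM in cytotoxic clusters. IL12RB1 was at 3.51 and 10.9 to 43.4 CPM in these. The CCR6 cluster held 7.37 CPM of IL18R1 and 17.7 CPM of IL12RB1, the highest of neither chain. The top place of CCR6 cells and the IL18R1 order thus depend on how cells are chosen. Both chains were at 0 in the 112 thinned B control cells. For this count of 0 the floor of 3 counts is 2.68%. Among the naive, cytotoxic, FOXP3 and CCR6 gates, only 3 thinned shares were above that floor. They were IL12RB1 in CCR6 (9.80%) and cytotoxic cells (6.07%) and IL18R1 in CCR6 cells (4.90%). Those 3 shares were 16.4, 11.1 and 13.0% before thinning.

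Cytotoxic cells differed from naive cells by at least 2-fold, the fold used here, in 6 of the 8 chains. IL2RB (8.14-fold, interval 7.10 to 9.36), IL18R1 (7.83-fold, 4.32 to 15.04) and IL12RB1 (5.19-fold, 3.99 to 6.79) were higher. IL6R (5.44-fold, 4.08 to 7.40), IL6ST (4.50-fold, 3.69 to 5.54) and IL7R (2.27-fold, 2.17 to 2.37) were lower. With the cytotoxic gate at 2 genes IL7R was at a log2 ratio of -0.97, short of 2-fold. IL10RA was 1.80-fold higher (1.67 to 1.93) and IL4R was at a log2 ratio of -0.09 (-0.23 to 0.05). The background was high in this contrast, since 14% of 9542 genes with at least 50 UMIs were higher and 7.59% lower by the same fold. The median log2 ratio was 0.38 over the 8 chains and 0.17 over all genes. Relative to that shift of 0.17 the chains moved by 2.86 (IL2RB), 2.80 (IL18R1), 2.21 (IL12RB1), 0.68 (IL10RA), -0.26 (IL4R), -1.35 (IL7R), -2.34 (IL6ST) and -2.61 (IL6R), so none changed its direction. With the shift removed, higher genes made up 54.5% of those past the fold in place of 64.8%, and 53.9% when ribosomal and mitochondrial genes were left out of the total.

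**Figure D2:**
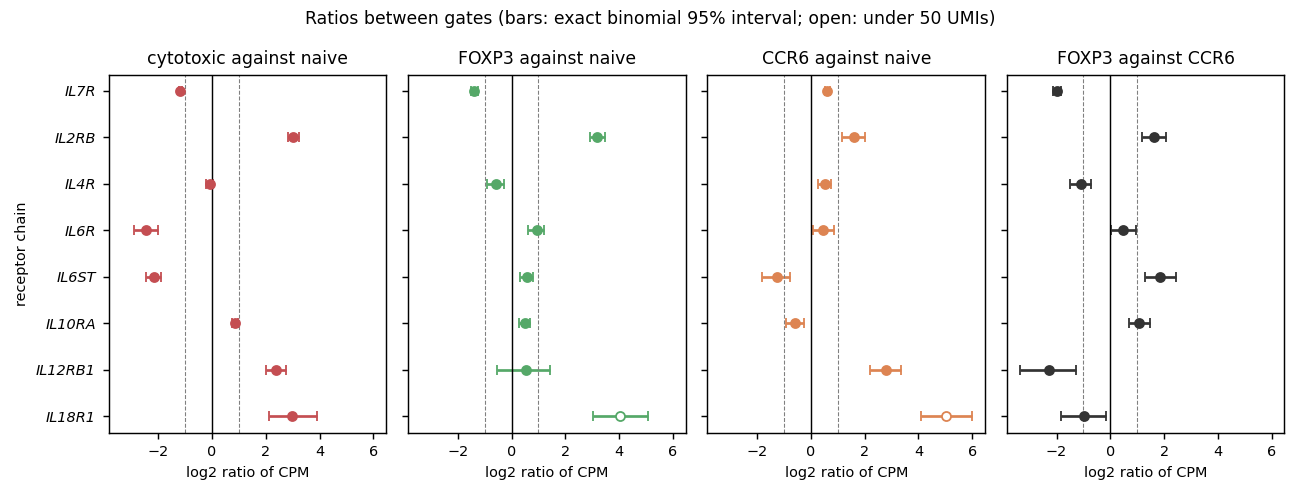
Log2 ratio of CPM for each receptor chain in 4 comparisons of gates, with bars for the exact binomial 95% interval and dashed lines at a 2-fold difference. Open points had under 50 UMIs over both gates. IL2RB lay to the right in all 4 panels, at log2 ratios of 3.03, 3.20, 1.58 and 1.61.

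Cytotoxic and naive cells were also compared within a tag compartment. Within CD4hiCD8lo cells 5 of 7 chains were past 2-fold, beside 13.2% of 8731 genes higher and 9.93% lower, and within CD4hiCD8hi cells 5 of 7, beside 12.9% of 7781 genes higher and 4.28% lower. Within CD4hiCD8lo cells the log2 ratio of cytotoxic to naive cells was 3.12 for IL2RB (2.82 to 3.42), -1.13 for IL7R (-1.25 to -1.01), -1.98 for IL6R (-2.80 to -1.26) and -2.46 for IL6ST (-3.16 to -1.84). Within CD4hiCD8hi cells the same ratios were 2.31, -1.05, -2.67 and -1.91. For IL12RB1 they were 2.65 and 2.78, and for IL18R1, from 15 and 39 UMIs and so under the minimum of 50, 2.73 and 1.85. Among CD4loCD8hi cells, IL2RB was higher (2.73, 1.98 to 3.59), IL10RA was higher (1.80, 1.14 to 2.53), and IL7R (-1.93, -2.20 to -1.67) and IL6ST (-3.58, -5.32 to -2.17) were lower in cytotoxic cells. IL6R had 0 UMIs in the cytotoxic and 2 in the naive cells of that compartment, too few for a ratio. Of the 260 cytotoxic CD4loCD8hi cells, 32 had both FCER1G and TYROBP (described below), and their part in these ratios was not tested.

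Across cells with more and more of the cytotoxic genes, the chains did not change at the same point. IL7R was at 824 CPM in T cells with 0 of the 8 genes, 911 CPM with 1 and 933 CPM with 2 (866 to 1004), and then went from 716 CPM with 3 (660.0 to 776) to 195 CPM with 8 (153 to 245). IL2RB was already at 67.5 CPM with 1 gene and 137 CPM with 2 (112 to 165), beside 30.4 CPM with none (28.0 to 32.8). It stayed between 104 and 158 CPM from 2 to 7 genes and was at 264 CPM with all 8 (215 to 321). Cells with 1 or 2 cytotoxic genes thus held the IL7R level of naive cells or more, together with a raised IL2RB level. IL6ST was at 69.8, 45.3, 35.1 and 19.0 CPM with 0, 1, 2 and 3 genes, while IL6R stayed between 47.5 and 53.8 CPM up to 2 genes and was at 15.5 CPM (8.23 to 26.4) with 3. IL18R1 had its highest values with 1 or 2 genes, at 17.4 CPM (12.0 to 24.4) and 18.2 CPM (9.96 to 30.6), and was at 3.94 CPM (1.58 to 8.11) with 5. It was at 13.1 CPM (6.53 to 23.4) with 3 and 15.8 CPM (5.81 to 34.5) with 8, with overlapping intervals, so no peak is shown. Depth moved with these classes, from a median of 2957 UMIs with no gene to 4174.5 with 2, 3458 with 3 and 4335 with 8, and its part in the pattern was not tested. The classes also differ in make-up, since the naive gate lies within the class with 0 genes by definition. With the cytotoxic gate at 2 genes the CCR6 gate held 194 cells in place of 207. The part of make-up in the pattern was not tested either. The classes hold 6385, 452 and 168 cells for 0, 1 and 2 genes, of which the last 2 lie just outside the gate, and 222 cells with 3 genes lie just inside.

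**Figure D3:**
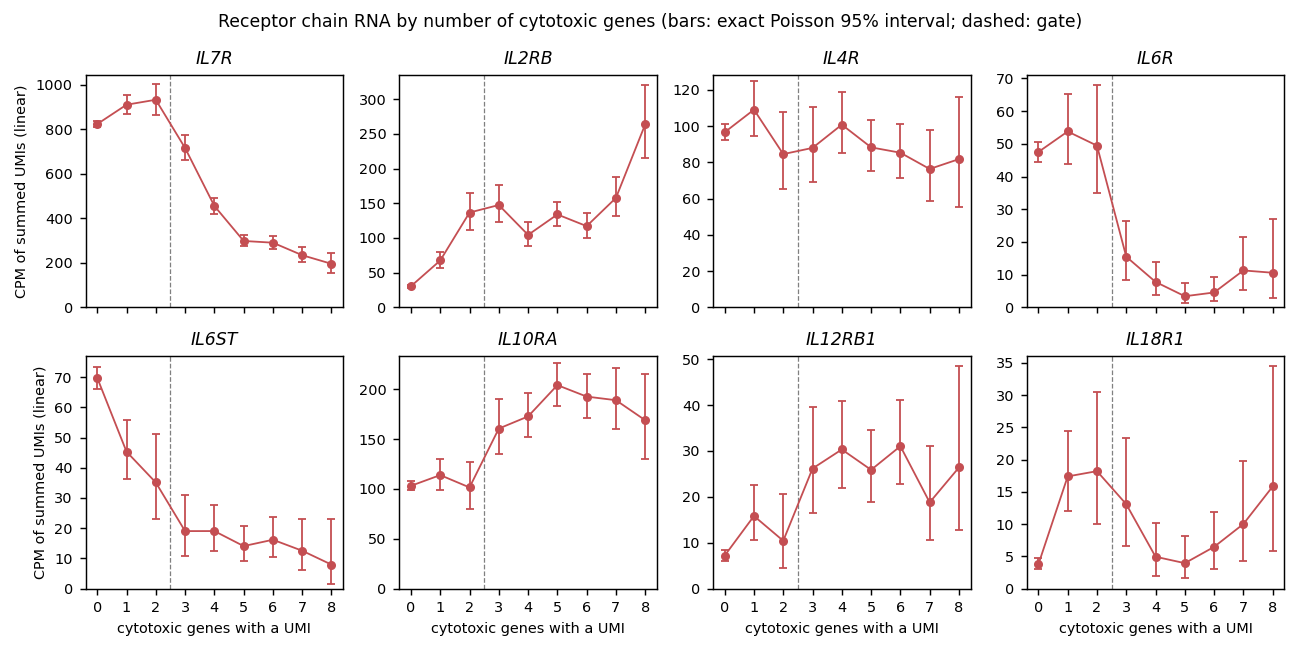
RNA level of each receptor chain (linear axis, CPM) in T cells grouped by how many of 8 cytotoxic genes had a UMI, with bars for the exact Poisson 95% interval and a dashed line where the cytotoxic gate begins. IL7R was at 933 CPM with 2 genes and 195 CPM with 8, and IL4R stayed between 76.4 and 109 CPM. IL2RB was at 30.4 CPM with none, between 104 and 158 CPM with 2 to 7 and at 264 CPM with 8.

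Cells with other levels were found within the gate. A group of 54 cells with both FCER1G and TYROBP, adaptor proteins of innate receptors, had 557 CPM of IL2RB (472 to 652) against 118 CPM in the other 1533 cytotoxic cells (109 to 126), a 4.73-fold difference (3.95 to 5.63). IL7R was at 152 CPM against 377 CPM in the same cells, 2.49-fold lower (1.83 to 3.46). KLRF1 and NCR1, receptors of NK cells, were at 325 and 130 CPM in the 54 cells and NCAM1 was at 0. The T cell markers summed to 965 CPM in the 54 cells, against 4021 CPM in the other 1533, and to 708 CPM in the 32 of them that were CD4loCD8hi, so these cells held few T cell transcripts. The monocyte list summed to 2374 CPM in the 54 cells, and without the 5 cells that held at least 3 of its UMIs it summed to 12.8 CPM and IL2RB was at 622 CPM (525 to 731). In the 32 CD4loCD8hi cells IL2RB was at 793 CPM (647 to 962) and IL7R had 0 UMIs, where 3 UMIs would be 23.1 CPM. The 74 cytotoxic cells with GZMK but no GZMB had 887 CPM of IL7R, 1.47 on the log2 scale above the 1471 cells with GZMB (1.27 to 1.66), whose level was 320 CPM. Their IL6R was at 42.9 CPM from 12 UMIs, close to the naive level, against 5.27 CPM. These subsets were chosen with earlier results of the same cells known.

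FOXP3 cells differed from naive cells by 2-fold or more in 2 of the 7 chains with enough UMIs. IL2RB was 9.17-fold higher (7.65 to 10.99) and IL7R 2.61-fold lower (2.38 to 2.87). The background was 3.28% of 8944 genes higher and 4.92% lower. IL6R (1.91-fold, 1.55 to 2.33), IL6ST (1.49-fold, 1.246 to 1.76) and IL10RA (1.41-fold, 1.22 to 1.63) were higher and IL4R 1.51-fold lower (1.22 to 1.89), all short of 2-fold, and IL12RB1 was at a log2 ratio of 0.52 (-0.53 to 1.43). IL18R1 had 22 UMIs in FOXP3 and 15 in naive cells, under the minimum of 50 over both, with a log2 ratio of 4.03 (3.01 to 5.08). The median log2 ratio was 0.52 over the 7 chains and -0.03 over all genes.

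Among FOXP3 cells IL7R differed with IL2RA. In the 80 FOXP3 cells with IL2RA, the high-affinity chain for IL-2, IL7R was at 230 CPM against 349 CPM in the 286 without (log2 ratio -0.60, -0.96 to -0.25). IL2RB was at 144 CPM and 155 CPM in the same cells and not apart (-0.11, -0.58 to 0.35). With and without CTLA4 the intervals held 0 for every chain but IL7R (275 against 340 CPM, log2 ratio -0.30), whose interval ended just below 0.

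CCR6 cells were past 2-fold against naive cells in 3 of 7 chains. IL12RB1 was 6.92-fold higher (4.63 to 10.2), IL2RB 2.997-fold higher (2.20 to 4.02) and IL6ST 2.43-fold lower (1.71 to 3.57). All genes gave a background of 8.57% higher and 7.85% lower of 8952. IL7R (1.53-fold, 1.45 to 1.62), IL4R (1.43-fold, 1.20 to 1.69) and IL6R (1.38-fold, 1.04 to 1.79) were higher and IL10RA 1.5-fold lower (1.19 to 1.91). IL18R1 had 33 UMIs in 207 CCR6 cells and 15 in 5203 naive cells, 48 in all and so just under the minimum, with a log2 ratio of 5.02 (4.10 to 6.003). The median was 0.51 over the 7 chains and 0.05 over all genes. Of the genes past the fold 767 were higher and 703 lower, and 627 and 836 when ribosomal and mitochondrial genes were left out of the total.

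Set against each other, FOXP3 and CCR6 cells differed by 2-fold or more in 6 of 8 chains. IL6ST (3.61-fold, 2.45 to 5.46), IL2RB (3.06-fold, 2.27 to 4.19) and IL10RA (2.12-fold, 1.62 to 2.79) were higher in FOXP3 cells. IL12RB1 (4.82-fold, 2.43 to 10.4), IL7R (3.99-fold, 3.59 to 4.44) and IL4R (2.16-fold, 1.65 to 2.83) were lower. IL12RB1 rests on 11 and 40 UMIs, just over the minimum, and was under it with several other gates, although its log2 ratio stayed between -2.92 and -2.14. With the FOXP3 and CCR6 gates at 2 UMIs IL4R was at -0.69, short of 2-fold. IL6R was at 0.47 (0.008 to 0.95), higher in FOXP3 cells. Only 2.27% of 4754 genes were higher and 5.45% lower by that fold. IL18R1 was 1.99-fold lower, just inside the limit, and IL4R and IL10RA were the ones just past it. The median log2 ratio was -0.26 over the chains and -0.11 over all genes. Relative to that shift the 6 chains lay at 1.96, 1.72, 1.19, -2.16, -1.89 and -1.001 in the order given, and higher genes made up 42.1% of all genes past the fold in place of 29.4%.

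CXCR5 and CCR4 cells, the smallest gates, each had a chain of their own at the top. In CXCR5 cells IL6R was higher than in naive cells by a log2 ratio of 1.75 (1.42 to 2.06), IL2RB by 2.45 (2.03 to 2.85) and IL4R lower by -1.10 (-1.67 to -0.58). In CCR4 cells IL4R was higher by 1.08 (0.73 to 1.41) and IL2RB by 1.71 (0.99 to 2.35). IL7R was -0.19 (-0.32 to -0.06) in the former and 0.39 (0.24 to 0.53) in the latter. IL18R1 was higher from 5 and 4 UMIs, by 2.99 (1.17 to 4.52) and 3.48 (1.43 to 5.13), and IL6R was higher in CCR4 cells by 0.80 (0.18 to 1.35). For IL6ST, IL10RA and IL12RB1 the intervals held 0 in both gates. These gates rest on 152 and 79 cells of median depths 4222.5 and 4694.

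Tag compartments were then compared over all T cells. CD4hiCD8hi cells were past 2-fold against CD4hiCD8lo cells in 1 of 8 chains, IL18R1, at 10.2 CPM (8.36 to 12.3) against 2.97 CPM (2.23 to 3.89), a 3.43-fold difference (2.45 to 4.85). IL2RB (1.95-fold, 1.76 to 2.16) and IL12RB1 (1.86-fold, 1.497 to 2.31) were higher and IL6ST was 1.61-fold lower (1.44 to 1.80), while IL7R was 1.08-fold lower (1.05 to 1.11). IL10RA was at a log2 ratio of 0.12 (0.02 to 0.22), and the intervals of IL4R and IL6R held 0. The background was 4.89% of 9889 genes higher and 1.04% lower. The median log2 ratio was 0.08 over the chains and 0.06 over all genes. The 2 compartments differ in make-up, since 4176 of the CD4hiCD8lo cells were naive and 439 cytotoxic, against 902 and 875 of the CD4hiCD8hi cells.

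CD4loCD8hi cells differed from CD4hiCD8lo cells by 2-fold or more in 4 of 8 chains. IL2RB was 4.27-fold higher (3.69 to 4.94), with 167 against 39.0 CPM, and IL18R1 2.63-fold higher (1.28 to 4.98) from 12 and 53 UMIs. IL6R was 16.2-fold lower (6.29 to 59.5), with 4 UMIs in 404 cells against 751 in 5669 cells, and IL6ST 2.42-fold lower (1.78 to 3.38). IL7R was at 422 against 768 CPM, 1.82-fold lower (1.68 to 1.97), and IL10RA at 129 against 118 CPM, not apart (log2 ratio 0.13, -0.09 to 0.34). IL4R was lower by a log2 ratio of -0.82 (-1.15 to -0.50) and IL12RB1 higher by 0.70 (0.006 to 1.34). Of 9290 genes 5.27% were higher and 7% lower. The median log2 ratio was -0.34 over the chains and 0.02 over all genes. The NK list summed to 515 CPM in CD4loCD8hi cells and 38.6 CPM in CD4hiCD8lo cells, and the cytotoxic list to 8190 and 806 CPM. The 404 CD4loCD8hi cells included the 32 with both FCER1G and TYROBP. In those 32 the NK list summed to 4973 CPM and the T cell markers to 708 CPM. Their part in the IL2RB ratio was not tested.

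**Figure D4:**
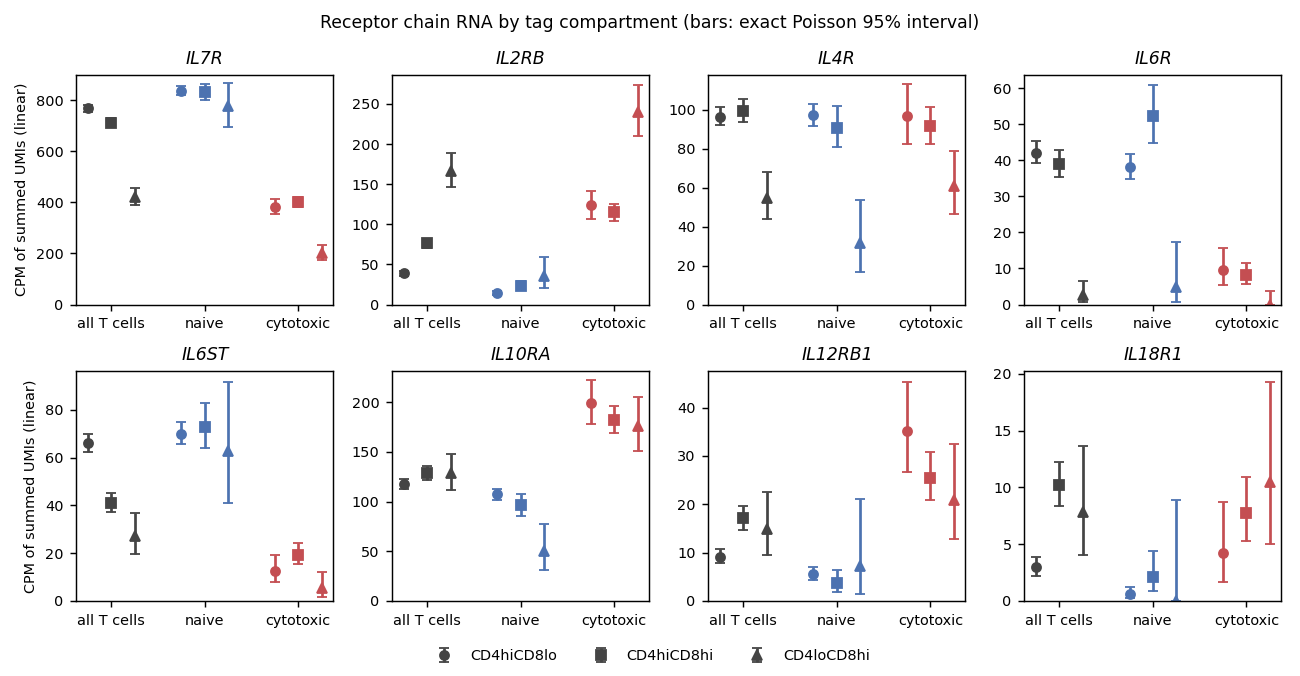
RNA level of each receptor chain (linear axis, CPM) in the 3 tag compartments, for all T cells, naive cells and cytotoxic cells, with bars for the exact Poisson 95% interval. Circles are CD4hiCD8lo, squares CD4hiCD8hi and triangles CD4loCD8hi cells. IL6R was at 0 CPM in cytotoxic CD4loCD8hi cells and 4.82 CPM in naive CD4loCD8hi cells, against 52.3 CPM in naive CD4hiCD8hi cells.

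Among naive cells alone IL7R did not separate the compartments. It was at 837 CPM in CD4hiCD8lo (821 to 854), 831 CPM in CD4hiCD8hi (800 to 863) and 776 CPM in CD4loCD8hi naive cells (694 to 866). The 108 naive CD4loCD8hi cells were past 2-fold against the 4176 naive CD4hiCD8lo cells in 4 of 7 chains. IL6R was lower (7.91-fold, 2.18 to 65.5, from 2 UMIs), as were IL4R (3.097-fold, 1.80 to 5.83, from 13 UMIs) and IL10RA (2.12-fold, 1.38 to 3.43, from 21 UMIs). IL2RB was 2.54-fold higher (1.39 to 4.31, from 15 UMIs). IL12RB1 had 3 UMIs in these cells (log2 ratio 0.37, -1.94 to 1.98) and IL18R1 had 0. In this small group 16.6% of 8441 genes were lower and 2.25% higher, and all genes had a median log2 ratio of -0.26, beside -0.16 over the chains. Relative to that shift IL6R was at -2.72, IL4R at -1.37, IL10RA at -0.82 and IL2RB at 1.61, while IL7R and IL6ST, neither of them past the fold, turned from -0.11 and -0.16 to 0.15 and 0.10. With the shift removed, 28.2% of the genes past the fold were higher in place of 12.0%.

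Naive CD4hiCD8hi cells differed from naive CD4hiCD8lo cells in IL2RB and IL6R, beyond counting error but short of 2-fold, and in IL18R1 from 7 and 8 UMIs (log2 ratio 1.75, 0.06 to 3.41). IL2RB was at 23.1 against 14.2 CPM (log2 ratio 0.70, 0.29 to 1.09) and IL6R at 52.3 against 38.1 CPM (0.45, 0.19 to 0.71). IL4R, IL6ST, IL7R and IL10RA had log2 ratios between -0.16 and 0.06 with intervals that held 0.

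Among cytotoxic cells no chain was past 2-fold against CD4hiCD8lo cells by the rule used. In CD4loCD8hi against CD4hiCD8lo cytotoxic cells, 0 of 5 chains with enough UMIs passed, with 1.03% of 5146 genes higher and 1.19% lower. IL2RB was nonetheless 1.95-fold higher (1.60 to 2.36), at 240 against 124 CPM, and IL7R 1.88-fold lower (1.60 to 2.22), at 204 against 383 CPM. IL6R had 0 UMIs in 260 cells against 16 in 439. IL4R was lower by a log2 ratio of -0.67 (-1.13 to -0.23), and the intervals of IL10RA, IL12RB1 and IL18R1 held 0. Without the cells that had both FCER1G and TYROBP, 32 and 1 in number, IL2RB was at 153 against 122 CPM and not apart (log2 ratio 0.33, -0.01 to 0.65), and IL7R was at 236 against 381 CPM (-0.69, -0.93 to -0.46). In CD4hiCD8hi against CD4hiCD8lo cytotoxic cells, 0 of 7 chains passed, with 1.17% of 7293 genes higher and 0.096% lower, and all 8 intervals of the log2 ratio held 0. The medians were -0.67 over 5 chains beside -0.03 over all genes in the first of these comparisons, and -0.11 over 7 chains beside -0.02 in the second. In CD4loCD8hi against CD4hiCD8hi cytotoxic cells 2 of 6 chains passed, with 1.07% of 6984 genes higher and 2.63% lower. IL2RB was 2.09-fold higher (1.78 to 2.46), at 240 against 115 CPM, and IL6ST 3.69-fold lower (1.52 to 11.7), from 5 and 80 UMIs. Without the cells that had both FCER1G and TYROBP, IL2RB was at 153 against 107 CPM (log2 ratio 0.52, 0.22 to 0.81), short of 2-fold.

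FOXP3 and CCR6 cells could be compared between CD4hiCD8hi and CD4hiCD8lo only, since each had 1 CD4loCD8hi cell. In 84 CD4hiCD8hi FOXP3 cells IL6ST was at 66.6 CPM against 121 CPM in 281 CD4hiCD8lo FOXP3 cells (log2 ratio -0.86, -1.503 to -0.26), and IL10RA at 107 against 162 CPM (-0.60, -1.11 to -0.12). The monocyte list summed to 19.0 CPM in the former and 134 CPM in the latter, and its part in these levels was not tested. IL12RB1 was higher from 7 and 4 UMIs (2.11, 0.13 to 4.33), and IL2RB and IL7R were not apart. In 142 CD4hiCD8hi CCR6 cells IL18R1 was at 38.8 CPM from 31 UMIs, against 6.88 CPM from 2 UMIs in 63 CD4hiCD8lo CCR6 cells (2.49, 0.52 to 5.603), while IL7R was at 1263 and 1307 CPM and IL12RB1 at 38.8 and 31.0 CPM, both not apart.

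Within a gate the chains were spread over cells in different ways. At equal depth a naive cell had a median of 1 IL7R UMI and the highest had 12, with a variance of 1.53 times the mean, whereas in cytotoxic cells the median was 0, the highest again 12 and the variance 2.32 times the mean. IL2RB had a ratio of 1.42 in cytotoxic cells, in which the highest cell had 8 UMIs. For IL4R, IL6ST, IL10RA, IL12RB1 and IL18R1 the ratio lay between 0.97 and 1.05 in cytotoxic cells. A UMI of none of the 8 chains was found in 21.8% of cytotoxic cells, 16.5% of FOXP3 cells, 11.9% of naive cells, 3.43% of CCR6 cells and 53.6% of B control cells.

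Pairs of chains were also counted in the same thinned cells. IL7R and IL2RB were found together in 1.81% of naive, 9.33% of cytotoxic, 11.4% of FOXP3 and 11.3% of CCR6 cells, and IL7R and IL4R in 14.5% of naive and 19.1% of CCR6 cells. In naive cells IL2RB was found in 2.37% of the cells with IL7R and 5.29% of those without, while in cytotoxic cells the shares were 23.9% and 24.0%. IL6R and IL6ST were together in 60 of 4698 naive cells (1.28%), beside 1.05% from the product of their shares, and in 12 of 352 FOXP3 cells. IL12RB1 and IL18R1 shared 1 of 7841 T cells. Counts per cell are sparse, and these values are descriptions only.

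Of 65 further genes of cytokine signalling, listed for their role in the pathways, 61 were found. Between cytotoxic and naive cells 39 had enough UMIs, of which 10 were higher and 3 lower by 2-fold or more, beside 14 and 7.59% of all genes, with a median log2 ratio of 0.32 beside 0.17 over all genes. The highest were IL7, the ligand of IL7R (46.6 against 0.37 CPM, log2 ratio 6.98), TGFBR3, a co-receptor for TGF-β (153 against 1.42 CPM, 6.75), IL18, the ligand of IL18R1 (74.5 against 0.74 CPM, 6.65), IL10, the ligand of IL10RA (10.1 against 0.12 CPM, 6.35, interval 4.44 to 9.42, from 2 UMIs in naive cells), and IL12RB2, the partner of IL12RB1 (8.58 against 0.19 CPM, 5.53, interval 3.92 to 7.85, from 3 UMIs in naive cells). The lower ones were IFNGR2 (11.8 against 101.7 CPM, -3.10), IL17RA (12.9 against 61.8 CPM, -2.26) and IL2RA (1.63 against 3.82 CPM, -1.23). Of the 11 kinases and STATs, 1 was past 2-fold, STAT4, which signals for IL-12 (89.9 against 30.6 CPM, 1.56). IL10RB, the partner of IL10RA, was also higher (176 against 50.2 CPM, 1.81). The monocyte and NK lists summed to 110 and 255 CPM in cytotoxic cells and to 17.5 and 20.7 CPM in naive cells, and their part in the levels of the ligands was not tested.

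In FOXP3 against naive cells 32 of the pathway genes had enough UMIs, of which 3 were higher and 0 lower, beside 3.28 and 4.92% of all genes, with a median log2 ratio of 0.19 beside -0.03. IL2RA was at 92.5 against 3.82 CPM (log2 ratio 4.60, 4.15 to 5.05), SOCS2, an inhibitor that STAT5 induces, at 8.22 against 2.53 CPM (1.70, 0.64 to 2.66) and CISH, another such inhibitor, at 13.7 against 6.85 CPM (1.0007, 0.23 to 1.70). In CCR6 against naive cells 10 of 34 were higher and 1 was lower, beside 8.57 and 7.85% of all genes, with a median of 0.58 beside 0.05. IL18 (43.6 against 0.74 CPM, 5.88), TGFBR3 (35.4 against 1.42 CPM, 4.64), SOCS2 (48.1 against 2.53 CPM, 4.25), IL17RE, a receptor chain for IL-17C (37.2 against 2.78 CPM, 3.74), and IL2RA (14.5 against 3.82 CPM, 1.93) led these, and SOCS5 was past the fold on the lower side from 3 UMIs (-1.24, interval -3.54 to 0.35). In FOXP3 against CCR6 cells 1 of 24 was higher, IL2RA, and 3 were lower, SOCS2 (-2.55), STAT4 (-1.43) and STAT5B (-1.08), beside 2.27 and 5.45% of all genes.

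The same list was also compared between tag compartments. In CD4hiCD8hi against CD4hiCD8lo cells 8 of 41 were higher and 0 lower, beside 4.89 and 1.04% of all genes, led by IL23R (4.67 against 0.62 CPM), IL12RB2 (3.46 against 0.73 CPM) and TGFBR3 (64.2 against 20.1 CPM). In CD4loCD8hi cells 5 of 36 were higher, among them TGFBR3 (105 CPM) and IL7 (31.9 CPM), and 4 were lower, namely IL2RA, IFNGR2, STAT5B and IL17RA, beside 5.27 and 7% of all genes. Within naive cells, where 2.25% of all genes were higher and 16.6% lower in CD4loCD8hi cells, 0 of 29 were higher and 2 lower, CISH and JAK2, from 1 and 5 UMIs and with intervals of the log2 ratio that held 0. Within cytotoxic cells 0 of 22 passed for CD4loCD8hi, beside 1.03% of all genes higher and 1.19% lower. For CD4hiCD8hi cytotoxic cells 1 of 30, IL17RA, was higher (15.7 against 6.66 CPM), beside 1.17% of all genes.

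Over 13 exclusive groups of cells, with naive and cytotoxic cells divided by tag compartment, other genes with at least 200 UMIs were ranked by the correlation of log2(CPM + 5) with each chain. IL6ST was most like LEF1 (Pearson's r 0.97), CCR7 (0.95) and TOB1 (0.95). LEF1 and CCR7 are among the genes that define the naive gate, so their levels over these groups follow in part from the gating. IL7R was most like SCAPER (0.97), KLHL21 (0.97) and CAMK4 (0.95). IL2RB was most like TNFRSF1B (0.92), SRGN (0.90) and PTTG1 (0.89), IL6R like CHMP7, CYTH1 and PPP1CC (0.92 to 0.96), and IL4R like PLEC, POLR2I and ARHGEF6 (0.88 to 0.89). IL10RA was most like TBPL1, TSG101 and TFIP11 (0.91 to 0.92) and IL12RB1 like EDF1, KCNAB2 and P4HB (0.93 each), while IL18R1 had too few UMIs. Among the chains themselves IL7R and IL6ST were the most alike (0.77) and IL6ST and IL10RA the least (-0.49). The 13 groups share 1 library, differ in depth and number only 13 against 7925 genes ranked, so these values are descriptions of likeness in level.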

How the data were processed

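The values deposited by the authors were raw counts of UMIs for every gene or tag in each barcode. The submitters' processing notes name Cell Ranger 3.1.0, STAR 2.5.1b and Seurat 3.1.3. Mapping was to the Macaca_fascicularis_5.0 build, as the study's methods give it, and no annotation of that build was used here, so no coordinates are printed. Of 8953 deposited barcodes, cells were kept where 200 to 4000 genes were detected and mitochondrial genes (13) took no more than 20% of the UMIs, leaving 8830 cells with 31677119 gene UMIs and a median of 3145. Sums of UMIs over the cells of a group were turned into CPM and given exact Poisson intervals (95%), ratios with intervals from the exact binomial (Clopper-Pearson) split of UMIs, and shares with exact binomial intervals after thinning to 2200 UMIs. Where a count was 0, the floor is 3 counts. UMIs limit PCR copies, and intervals and floors cover counting error only. A gene was past the fold at 2-fold with at least 50 UMIs over both groups. Gates took cells in the order B and T, B, cytotoxic, FOXP3, CCR6, CXCR5, CCR4, naive, which left 998 T cells in no named gate. B cells had at least 3 UMIs of 8 B cell genes, and those with at least 2 UMIs of the T cell genes as well were left out of all gates and compartments. Scrublet called 0 of 8830 cells, which is not taken to mean that there were no doublets. No doublet was removed, and leaving out the 441 cells with the highest scores was an alternative.

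The chains, gene lists, gates and comparisons were chosen with earlier results of these data known. All chains were measured in every comparison, and some with few UMIs or intervals that held 0 are given only as counts. Named were, of the pathway list at most the 5 largest past the fold in each direction, apart from STAT4 and IL10RB, which were chosen after their values were seen. The FCER1G and TYROBP cells divided by compartment, and the counts for cytotoxic against naive cells within a compartment and for CD4loCD8hi against CD4hiCD8hi cytotoxic cells, were also chosen after values were seen. Some subsets of the FOXP3 and CCR6 cells are not reported here. For each chain the 3 genes most like it were named. Alternatives were other filters, tag thresholds, gates, clusters, scalings, depths and folds. Python 3.11.15, numpy 2.4.6, scipy 1.17.1, scikit-learn 1.9.0 and scanpy 1.11.5 were used, and the steps were tested on simulated data.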

Additional observations from a re-analysis of the deposited data

Results flagged for a closer look

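IL7R was seen above its level in B control cells in cells that no comparison used. These were 124 cells with B and T cell transcripts in the same barcode, in which IL7R was at 544.7 CPM (511 UMIs), against 1.79 CPM (1 UMI) in the 114 B control cells. Their T cell list summed to 2344 CPM and their B cell list to 1751 CPM, against 19.7 and 6178 CPM in B control cells, and their median depth was 6641.5 against 4542 UMIs. No other value of the report met the criteria for a closer look, in part because there are no replicates.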

How the results depend on the processing

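With 22 alternatives, 2 of them added after seeing the data (cells of median depth or more, and cells with fewer than 3 monocyte list UMIs), 182 of 198 counts of chains past the fold stayed within 1.5 times the reported count, and of 1539 log2 ratios of single chains 0 of those past the fold reversed and 67 left the reported interval. At a fold of 1.5 the counts were 4 in place of 2 (FOXP3 against naive), 4 in place of 1 (CD4hiCD8hi against CD4hiCD8lo), 7 in place of 4 (CD4loCD8hi against CD4hiCD8lo), 4 in place of 0 (cytotoxic CD4loCD8hi against CD4hiCD8lo) and 1 in place of 0 (cytotoxic CD4hiCD8hi against CD4hiCD8lo). For CD4hiCD8hi against CD4hiCD8lo the count was 2 with tag thresholds where mixtures cross (145.9 and 504.0 UMIs), 2 with lower tag thresholds, 2 with a mean over cells and 0 with at least 200 UMIs. For CD4loCD8hi against CD4hiCD8lo it was 2 in cells of median depth or more. For cytotoxic CD4loCD8hi against CD4hiCD8lo it was 1 with the cytotoxic gate at 2 genes, 2 with the gate at 5 genes, 2 with gates on thinned cells, 1 with a mean over cells, 1 with at least 20 UMIs and 1 in cells of median depth or more, the chains being IL7R, IL2RB or IL6ST. The cause was not tested, apart from the fold and the UMI minimum, which change the count by their own construction.

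The number of all genes past the fold was lowest with at least 200 UMIs and highest at a fold of 1.5, from 1206 to 3809 (main 2057) for cytotoxic, 244 to 1947 (733) for FOXP3 and 648 to 3171 (1470) for CCR6 against naive cells, 71 to 1083 (367) for FOXP3 against CCR6, 263 to 1467 (587) for CD4hiCD8hi and 522 to 2554 (1140) for CD4loCD8hi against CD4hiCD8lo cells, 541 to 3215 (1587) within naive cells, and 30 to 501 (114) and 16 to 462 (92) within cytotoxic cells. No paired analysis was possible because 1 animal gave 1 library of each kind. Depth limits IL18R1 and IL12RB1 most, with 174 and 371 UMIs in all T cells, and IL6R in CD4loCD8hi cells, with 4 UMIs.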
